A study of Homo sapiens with 9 samples.

Results

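The genes that encode chromatin modifying and remodeling enzymes were examined in the established human melanoma line WM983B after 24 h with 2.5 µM corin, 2.5 µM MS-275 or the matching amount of DMSO vehicle. They were chosen by gene symbol alone, as the genes whose symbols start with KDM, KAT, KMT, HDAC, SIRT, SETD, DNMT, TET, PRMT, EZH, CHD, ARID, BRD, CBX or NSD (with a digit after KAT, TET, CHD, BRD, CBX and NSD), without KDM1A, HDAC1 and CHD3. This gave 106 of 14884 named genes, of which 101 are protein-coding and 5 are antisense, divergent or pseudogene transcripts that carry the same prefix (KDM4A-AS1, KDM7A-DT, KMT2E-AS1, BRD7P3 and CBX3P2). Genes with the prefixes SMARC and BAZ also belong to the rule but were not analysed here. All counts below cover the 106 genes, and values are given for 105 of them, since the level of the Y-linked KDM5D is not reported.

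MS-275 (entinostat) inhibits class I histone deacetylases. Corin joins the benzamide zinc binding group of that class to a tranylcypromine analog that inactivates the histone demethylase LSD1, so that it addresses both catalytic subunits of the CoREST complex. The sample labels call it corin2, which was taken to be compound 2 of the study. Each group had 3 arrays (9 in all) of the Affymetrix Human Gene 2.0 ST type, and all 3 groups are the same cell line in the same medium, so that nothing beyond this line was measured. The labels call the arrays replicates without saying whether they came from separate cultures. The study's methods describe the array data as representative of 3 independent experiments, without tying each array to an experiment. If the arrays did not come from separate cultures, the p-values cover technical spread alone.

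Chromatin enzymes are usually grouped as writers, erasers, readers and remodelers. Writers add acetyl or methyl groups to histones (KAT, KMT, SETD, EZH, NSD and PRMT proteins) or methyl groups to DNA (DNMT proteins). Erasers take them off, as do the KDM demethylases, the zinc-dependent HDACs, the NAD-dependent sirtuins and, for DNA methylation, the TET oxidases. Readers such as the BRD and CBX proteins bind the marked histones, and remodelers such as the CHD proteins and the ARID subunits of BAF complexes belong to machines that move or eject nucleosomes with ATP.

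The median log2 signal of an array lay between 4.05 and 4.12 over all probes, and Pearson's r across the named genes was 0.989 to 0.991 among corin arrays, 0.994 among MS-275 arrays and 0.994 among vehicle arrays. These values are across genes, which do not count as replicates. The 8 measured melanocyte lineage genes, among them SOX10, MLANA and PMEL, all lay above the median gene in their mean over the 9 arrays, with group means of 5.59 to 9.74 under corin, 7.61 to 10.50 under MS-275 and 7.60 to 10.56 under vehicle. Several were lower under corin, such as SOX10 (-3.24 log2 units against vehicle, and -0.49 under MS-275) and MLANA (-3.09 and -0.91), and the part of this in the changes of the chromatin genes was not tested. The 4 measured keratinocyte markers all lay below it, while LUM of fibroblasts (9.07 under corin, 9.66 under MS-275 and 9.08 under vehicle), CD68 of macrophages and lysosomes, and KDR of endothelium lay above it and DCN, CD14, PECAM1 and VWF of the same cell types below it. KDR averaged 6.81 under corin and 6.94 under MS-275, against 4.47 under vehicle, where it was below the median gene, so that it was 5.05-fold higher under corin and 5.55-fold higher under MS-275. Of the 106 chromatin genes, 90 were at or above the median gene (log2 signal 5.36), and 16, including the testis-linked KDM4E and the pseudogene BRD7P3, were below it, where folds are less certain. Some of the 90 lay below it in 1 group, such as KDM7A under vehicle and KDM4D, KDM2B, NSD2 and DNMT3A under corin.

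Corin moved many of these genes, mostly downward and mostly by less than 2-fold. Calls rest on limma with p-values adjusted by Benjamini-Hochberg over all 14884 genes (adjusted p under 0.05), and a gene was counted as passing the fold when it also changed at least 2-fold. Against vehicle, corin lowered 48 of the 106 genes (45.3%, against 26.8% of all named genes) and raised 26 (24.5%, against 23.4%). With the fold, 14 were lower (13.2%, against 7.61%) and 12 higher (11.3%, against 7.26%). MS-275 lowered 38 (35.8%, against 15.4%) and raised 10 (9.43%, against 14.2%), but with the fold only 1 was lower (0.943%, against 0.39%) and 3 higher (2.83%, against 3.03%). The median log2 change of the chromatin genes was -0.20 under corin and -0.19 under MS-275, beside -0.04 and -0.03 over all named genes. Brighter genes were called more often on these arrays. Among the 7442 named genes at or above the median gene, corin lowered 40.7% and MS-275 25.7%. Among the 90 chromatin genes of that brightness it was 45 and 36 genes. At that brightness corin lowered 15.6% of the chromatin genes past the fold, against 13.3% of the named genes, and raised 12.2%, against 9.96%. The shares past the fold under corin thus lay closer together than over all genes. By adjusted p alone, corin raised 25.6%, against 30.1%, and MS-275 raised 11.1%, against 18.7%.

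Between the inhibitors, 31 chromatin genes were lower under corin than under MS-275 (29.2%, against 20.8% of all named genes) and 30 were higher (28.3%, against 17.4%). Past the fold, 5 were higher (4.72%, against 2.41%), namely KDM6B, KMT2C, SIRT7, ARID5A and ARID3B, and 3 were lower (2.83%, against 3.64%), namely KAT2B, SETD7 and KDM4D. Some of these were close to 2-fold. ARID5A and ARID3B fell short of it without MS-275 replicate 2 (3 genes higher), and ARID3B also with median centring or quantile normalization (4 higher). KDM4D fell short without corin replicate 2 or MS-275 replicate 1, and SETD7 without corin replicate 3 (2 genes lower in each case). The median log2 difference between the inhibitors was -0.03 for the chromatin genes and -0.03 for all named genes. At or above the median gene, 31.1% of the chromatin genes were lower under corin than under MS-275, against 32.4% of the named genes. Higher were 31.1%, against 24.5%. Past the fold, 3.33% were lower and 5.56% higher, against 6.53% and 3.16%. The comparisons of each inhibitor to vehicle share the same vehicle arrays. The combinations of calls were 32 genes lower than vehicle with both inhibitors, 16 lower under corin alone, 5 lower under MS-275 alone, 9 higher with both, 16 higher under corin alone, 1 higher under MS-275 alone, 1 higher under corin and lower under MS-275, and 26 with no call against vehicle. Being called with 1 inhibitor and not with the other does not show a difference, which the direct comparison tests. The combinations were counted for the chromatin genes only, so no share over all named genes stands beside them.

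**Figure D1:**
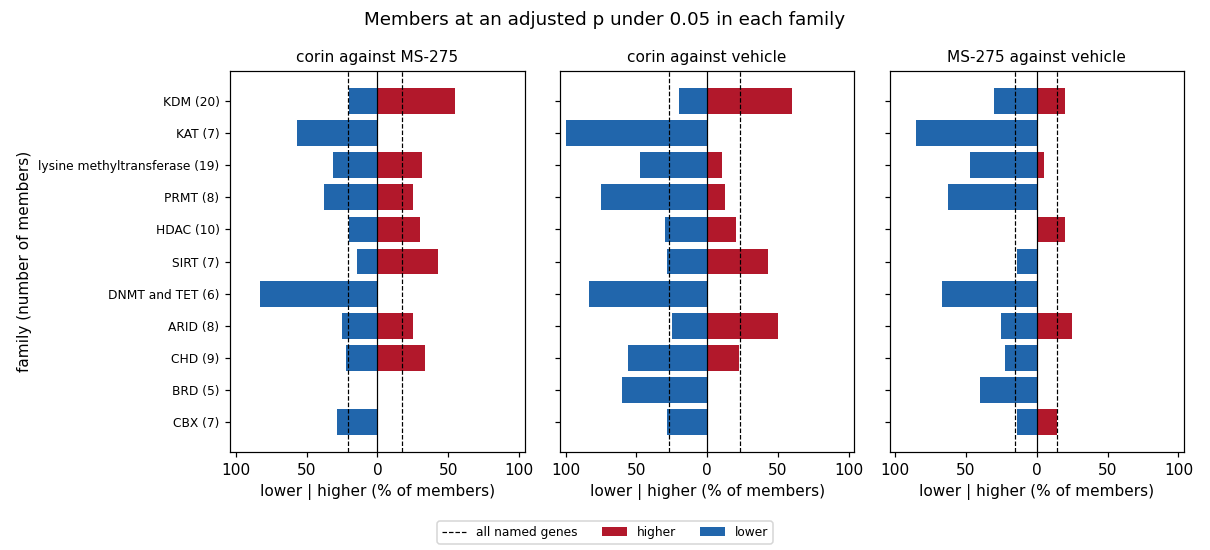
Share of each family's members called at an adjusted p under 0.05 from limma, as higher (red, to the right) or lower (blue, to the left), for corin against MS-275, corin against vehicle and MS-275 against vehicle, with the number of members in parentheses and dashed lines at the shares over all 14884 named genes. Against vehicle, all 7 KAT genes were lower under corin and none was higher, whereas 12 of 20 KDM genes were higher under corin and 4 were lower.

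The KDM symbols, which name histone demethylases and the noncoding KDM4A-AS1 and KDM7A-DT, had the largest share raised by corin in the plot of shares by family. Jumonji genes without the KDM symbol moved both ways under corin. PHF2 and PHF8 were lower than vehicle (log2 changes -1.87 and -0.32), and JMJD1C and JMJD6 were higher (1.47 and 0.38). Of 20 KDM genes, 12 were higher (60.0%, against 23.4% of all named genes) and 4 lower (20%, against 26.8%) than vehicle under corin. Of the 18 that are protein-coding, 10 were higher. With MS-275, 4 were higher (20%, against 14.2%) and 6 lower (30%, against 15.4%), and 11 were higher (55.0%, against 17.4%) and 4 lower (20%, against 20.8%) under corin than under MS-275. Their median log2 change was 0.28 under corin and -0.10 under MS-275.

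KDM1B encodes LSD2, the flavin-dependent demethylase most closely related to LSD1. Its log2 signal was 9.53, 9.56 and 9.44 on the corin arrays, 8.92, 8.96 and 8.85 on the MS-275 arrays and 7.83, 7.92 and 7.92 on the vehicle arrays, with no overlap between any groups. It was 3.08-fold higher under corin and 2.03-fold higher under MS-275 than under vehicle (log2 changes 1.62 and 1.02, adjusted p = 1.2e-08 and 3.1e-06), and 1.52-fold higher under corin than under MS-275 (0.60 log2 units with a 95% interval of 0.43 to 0.78, adjusted p = 9.1e-05). Its change under MS-275 was just past 2-fold and fell short of it without MS-275 replicate 2 or vehicle replicate 1, which left 2 genes higher past the fold.

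KDM7A, a jumonji demethylase of repressive histone H3 marks, rose most of all 105 genes against vehicle under corin. Its vehicle mean, 5.29, lay just below the median gene. It read 7.40, 7.27 and 7.12 on the corin arrays, 6.33, 6.29 and 6.39 on the MS-275 arrays and 5.43, 5.16 and 5.27 on the vehicle arrays, so that the 3 groups stood apart in steps. The fold over vehicle was 3.93 under corin and 2.07 under MS-275 (adjusted p = 1.5e-08 and 1.5e-05), and the log2 difference between the inhibitors was 0.92 (standard error 0.099, adjusted p = 2.1e-05). With MS-275 it fell short of 2-fold without vehicle replicate 2. KDM7A-DT, the noncoding transcript that runs the other way from next to the same start, followed with 6.19, 6.82 and 6.25 on the corin arrays, 5.65, 5.46 and 5.70 on the MS-275 arrays and 4.90, 5.12 and 4.87 on the vehicle arrays. It was 2.74-fold higher under corin and 1.56-fold higher under MS-275 than under vehicle, on a vehicle signal below the median gene. In the RefSeq annotation of GRCh38.p14 the start sites lie 278 bases apart on chromosome 7, KDM7A on the minus strand from 140176983 and KDM7A-DT on the plus strand from 140177261. The 250 bases before the KDM7A start, on the minus strand at chr7:140176984-140177233, are shown because they are most of the stretch between the 2 start sites. They are 81.6% G or C and hold none of the E2F or CHR words described at the end, so that all letters are in lower case.
KDM7A: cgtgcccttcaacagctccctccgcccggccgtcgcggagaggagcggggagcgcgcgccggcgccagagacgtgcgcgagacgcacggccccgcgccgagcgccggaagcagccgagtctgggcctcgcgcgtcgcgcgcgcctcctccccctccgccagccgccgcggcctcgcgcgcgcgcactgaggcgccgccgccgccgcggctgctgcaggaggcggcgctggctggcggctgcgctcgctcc

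KDM5B, a demethylase of the active lysine 4 mark of histone H3 that marks slow-cycling melanoma cells, read 8.17, 8.36 and 8.08 on the corin arrays, 7.74, 7.64 and 7.67 on the MS-275 arrays and 7.05, 7.03 and 6.98 on the vehicle arrays. The 3 groups did not overlap, the corin arrays on top and vehicle at the bottom, for folds of 2.26 under corin and 1.58 under MS-275 over vehicle (adjusted p = 4.4e-07 and 0.00017). KDM6B (JMJD3), which removes the Polycomb mark, took a different course, with 7.58, 7.48 and 7.30 on the corin arrays, 6.23, 6.29 and 6.35 on the MS-275 arrays and 6.60, 6.54 and 6.58 on the vehicle arrays. The corin arrays were the highest and the MS-275 arrays the lowest, without overlap. KDM6B was 2.24-fold higher under corin than under MS-275 (1.16 log2 units with a 95% interval of 0.97 to 1.36, adjusted p = 1.5e-06), which was the largest upward difference between the inhibitors in these 105 genes. Over vehicle it was 1.84-fold higher under corin, under the 2-fold limit, and lower under MS-275 (log2 change -0.29, adjusted p = 0.032), a small call that was lost with the replicate block (adjusted p = 0.058) and without MS-275 replicate 1 or 2 or any one of the vehicle arrays (0.064 to 0.11).

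Several other demethylases were raised by corin by less than 2-fold and were not called under MS-275. They were KDM6A (UTX), KDM3A, KDM4A, KDM5A and KDM2A, with log2 changes of 0.34, 0.38, 0.37, 0.31 and 0.25 under corin, beside -0.33, -0.11, -0.18, -0.09 and -0.13 under MS-275. Each was higher under corin than under MS-275 in the direct comparison, by 0.38 to 0.68 log2 units. KDM4C, raised by 0.24 under corin, was not called in that comparison.

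The demethylases that fell were led by KDM4D, which acts on lysine 9 of histone H3 and is best known from testis. Its signal was 4.35, 4.09 and 4.55 on the corin arrays, 5.66, 5.25 and 5.16 on the MS-275 arrays and 6.34, 6.39 and 6.44 on the vehicle arrays. The corin and the MS-275 arrays spread more than the vehicle arrays, yet the groups did not overlap. The corin mean, 4.33, lay below the median gene. KDM4D fell by 2.06 log2 units under corin and by 1.03 under MS-275 (adjusted p = 2.1e-07 and 0.00023), and was lower under corin than under MS-275 (-1.03 ± 0.14 log2 units with its standard error, adjusted p = 0.00014). Its change under MS-275 was just past the fold and fell short of it without MS-275 replicate 2 or 3, which left 0 genes lower past the fold. KDM3B, an eraser of the same mark, had log2 changes of -1.03 under corin and -0.50 under MS-275. KDM2B, which brings a Polycomb complex to unmethylated CpG islands, changed by -1.02 under corin and -0.67 under MS-275 (adjusted p = 3.5e-06 and 0.00033). KDM4E, KDM5C and KDM8 were not called in any comparison.

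**Figure D2:**
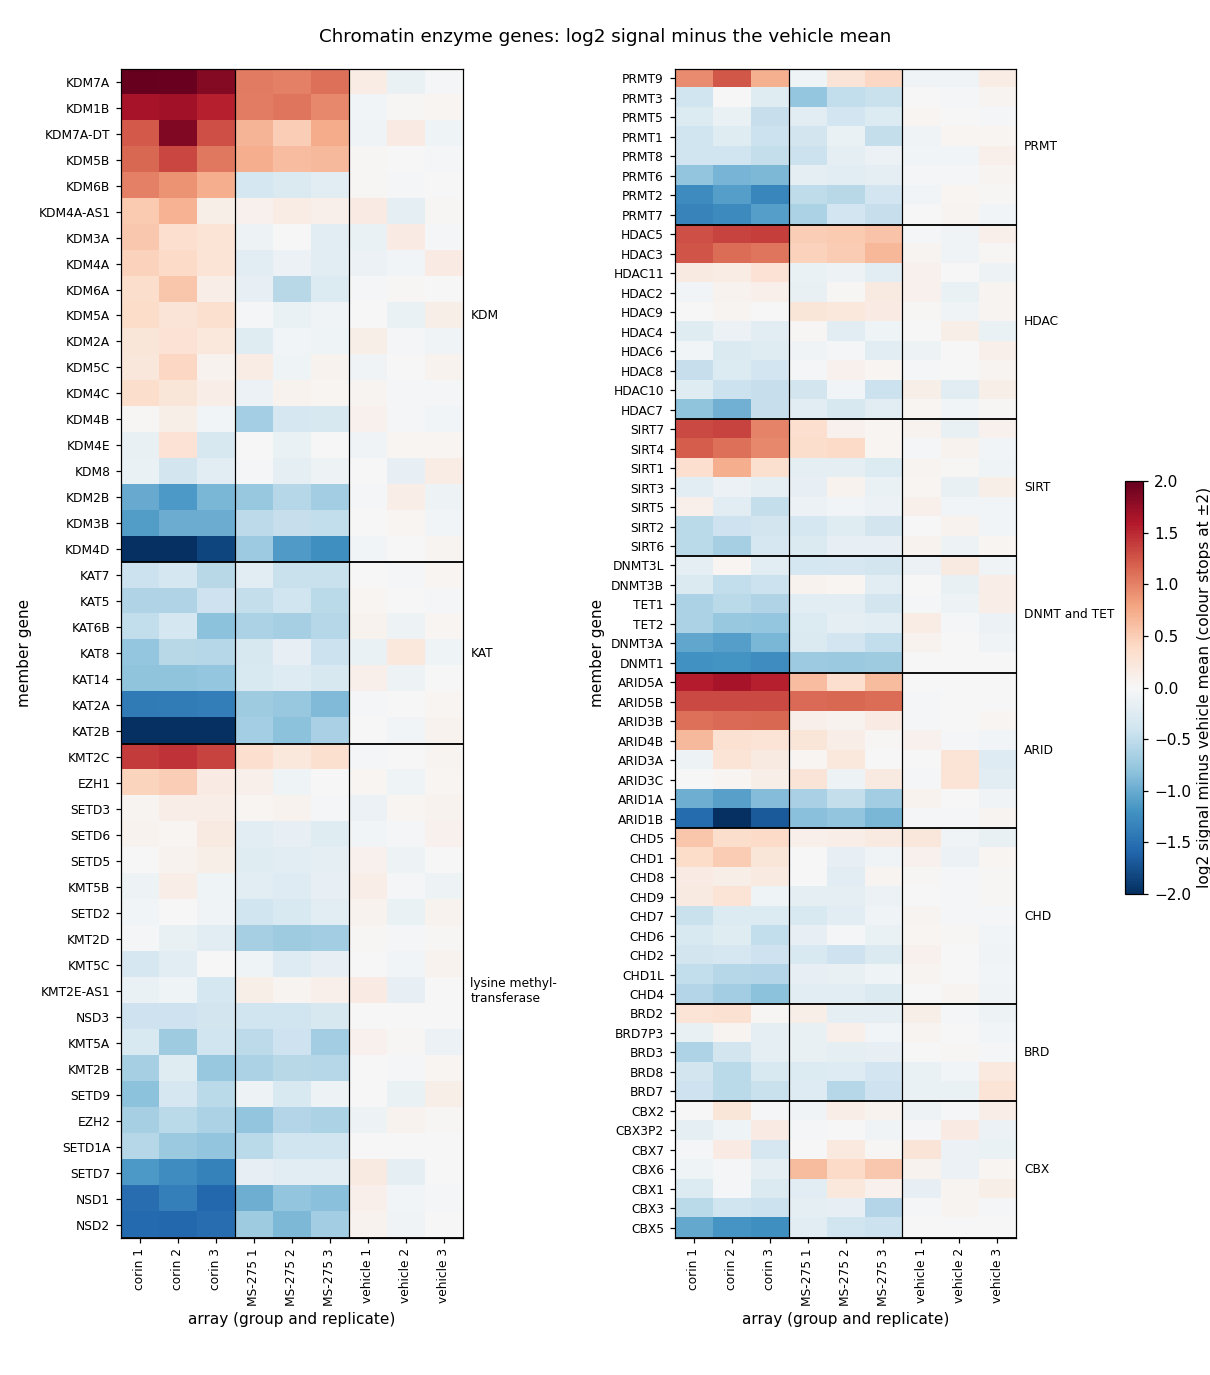
Log2 signal minus the vehicle mean of the same gene, for 105 chromatin enzyme genes (rows, by family and by change under corin) on 9 arrays (columns: 3 corin, 3 MS-275, 3 vehicle), with red above and blue below the vehicle mean and the colour stopped at 2 log2 units. KDM7A, KDM1B and ARID5A stand out as red and KAT2B, KDM4D and ARID1B as blue under corin, with paler shades of the same colour under MS-275 for these 6 genes.

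The lysine acetyltransferase genes with a KAT symbol moved one way. All 7 KAT genes were lower than vehicle under corin, and 6 of 7 under MS-275 (all named genes 26.8% and 15.4%), with median log2 changes of -0.64 and -0.47. KAT2B (PCAF), a coactivator acetyltransferase, had the largest fall of the 105 genes under corin, to 6.15, 6.32 and 6.12, against 7.74, 7.61 and 7.78 on the MS-275 arrays and 8.42, 8.37 and 8.50 on the vehicle arrays. No groups overlapped. It was 4.69-fold lower under corin and 1.64-fold lower under MS-275 than under vehicle (adjusted p = 2.3e-09 and 0.0001), and 2.85-fold lower under corin than under MS-275 (-1.51 log2 units with a 95% interval of -1.71 to -1.32, adjusted p = 1.7e-07), the largest difference between the inhibitors among these genes in either direction. Its paralog KAT2A (GCN5) was at 6.27, 6.29 and 6.29 on the corin arrays, 6.96, 6.92 and 6.79 on the MS-275 arrays and 7.64, 7.69 and 7.71 on the vehicle arrays. KAT2A was lower by 1.40 log2 units under corin and by 0.79 under MS-275, and lower under corin than under MS-275 (log2 difference -0.61, adjusted p = 8.1e-05).
The MYST family members KAT5 (TIP60), KAT6B (MORF) and KAT7 (HBO1) were lower with both compounds, at -0.54, -0.56 and -0.45 log2 units under corin and -0.47, -0.63 and -0.37 under MS-275. None of these 3 was called between the inhibitors, and the 95% intervals of the log2 differences were -0.25 to 0.12, -0.19 to 0.32 and -0.28 to 0.13. KAT8 (MOF) and KAT14, a subunit of the ATAC complex, changed by -0.64 and -0.79 under corin and by -0.31 and -0.29 under MS-275. The change of KAT8 under MS-275 did not pass (adjusted p = 0.067). Acetyltransferase genes without the KAT symbol moved both ways under corin. EP300 was higher than vehicle under corin (log2 change 0.44, adjusted p = 0.00065 from limma) and lower under MS-275 (-0.31). CREBBP and HAT1 were lower with both (-0.52 and -0.84 under corin, -0.60 and -0.38 under MS-275), and NCOA1 was not called in any comparison.

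Among 19 genes of lysine methyltransferases and their relatives, 9 were lower and 2 higher than vehicle under corin, and 9 were lower and 1 higher under MS-275. Lower were thus 47.4% under corin and 47.4% under MS-275, against 26.8% and 15.4% of all named genes. Among the named genes at or above the median gene it was 40.7% and 25.7%, so the share under corin lay near that of brighter genes. KMT2C (MLL3), which writes the lysine 4 mark of histone H3 at enhancers, was the one raised past the fold. It read 9.82, 9.87 and 9.77 on the corin arrays, 8.76, 8.64 and 8.74 on the MS-275 arrays and 8.38, 8.42 and 8.47 on the vehicle arrays, with the corin arrays well clear of the others. It was 2.64-fold higher under corin and 1.22-fold higher under MS-275 than under vehicle, and 2.16-fold higher under corin than under MS-275 (1.11 ± 0.078 log2 units with its standard error, adjusted p = 7.2e-07). The paralog KMT2D (MLL4) was not called under corin (log2 change -0.13, adjusted p = 0.2) and was lower under MS-275 (log2 change -0.69, adjusted p = 6.9e-05), so that it too was higher under corin than under MS-275 (log2 difference 0.55, adjusted p = 0.0002). KMT2B and SETD1A, of the same class of enzyme complexes, were lower with both, at -0.56 and -0.70 under corin and -0.59 and -0.45 under MS-275.

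NSD1 and NSD2 write the dimethyl mark on lysine 36 of histone H3. NSD2 had values of 5.24, 5.22 and 5.26 on the corin arrays, 6.08, 5.88 and 6.09 on the MS-275 arrays and 6.86, 6.72 and 6.79 on the vehicle arrays, in 3 separate steps, with log2 changes of -1.55 under corin and -0.77 under MS-275 (adjusted p = 3.4e-08 and 4.8e-05). NSD1 read 5.59, 5.76 and 5.55 on the corin arrays, 6.14, 6.34 and 6.28 on the MS-275 arrays and 7.22, 7.06 and 7.08 on the vehicle arrays, again without overlap, for log2 changes of -1.48 and -0.87. Both were lower under corin than under MS-275, by 0.78 log2 units for NSD2 and 0.62 for NSD1 (adjusted p = 2.6e-05 and 0.00026). The third paralog, NSD3, changed by -0.39 and -0.37, with a 95% interval of -0.18 to 0.14 for the difference between the inhibitors. SETD2, the writer of the trimethyl mark on the same lysine, was not called under corin (log2 change -0.04) and was lower under MS-275 (-0.31, adjusted p = 0.019).
SETD7, a monomethyltransferase of histone H3 and of other proteins, was at 5.51, 5.41 and 5.31 on the corin arrays, 6.49, 6.43 and 6.43 on the MS-275 arrays and 6.83, 6.47 and 6.66 on the vehicle arrays. The MS-275 and vehicle arrays overlapped and the corin arrays lay below both. The log2 change was -1.24 under corin (adjusted p = 8.4e-07) and -0.21 under MS-275 (adjusted p = 0.16), and the difference between the inhibitors was -1.04 (standard error 0.1, adjusted p = 9.5e-06).
EZH2, the catalytic subunit of Polycomb repressive complex 2, was lowered by both. Its signal was 7.77, 7.90 and 7.81 on the corin arrays, 7.64, 7.85 and 7.81 on the MS-275 arrays and 8.34, 8.51 and 8.46 on the vehicle arrays, so that the corin and MS-275 arrays overlapped, all of them below vehicle. The log2 changes were -0.61 under corin and -0.67 under MS-275 (adjusted p = 0.00011 and 0.00017), and the difference between the inhibitors had a 95% interval of -0.13 to 0.26. EZH1, its paralog of resting cells, was 1.29-fold higher under corin (adjusted p = 0.01), while its log2 change under MS-275 was 0.00 (95% interval -0.22 to 0.23). SETD3, KMT5B and KMT5C were not called in any comparison, and KMT5A, which monomethylates lysine 20 of histone H4, was lower by 0.47 log2 units under corin and 0.54 under MS-275.

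The 250 bases before the start of NSD2 (GRCh38.p14, plus strand, chr4:1871143-1871392) and of KDM1B (plus strand, chr6:18155172-18155421) are shown because they hold E2F words, in a gene that fell and in a gene that rose. Capitals mark the words TTTCCCGC and, in NSD2, TTTGAA, as found by letters alone.
NSD2: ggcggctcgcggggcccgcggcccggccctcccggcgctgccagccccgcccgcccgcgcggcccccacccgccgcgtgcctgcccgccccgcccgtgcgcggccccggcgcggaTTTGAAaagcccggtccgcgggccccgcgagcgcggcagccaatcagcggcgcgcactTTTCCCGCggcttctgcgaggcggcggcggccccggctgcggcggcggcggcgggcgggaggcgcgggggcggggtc
KDM1B: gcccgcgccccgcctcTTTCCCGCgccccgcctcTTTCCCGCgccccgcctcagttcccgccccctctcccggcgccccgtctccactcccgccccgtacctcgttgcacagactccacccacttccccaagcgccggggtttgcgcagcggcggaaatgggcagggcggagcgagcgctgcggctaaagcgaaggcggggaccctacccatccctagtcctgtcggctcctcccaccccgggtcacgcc

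Arginine methyltransferases were mostly lower. Against vehicle, 6 of 8 PRMT genes were lower and 1 was higher under corin, and 5 were lower under MS-275. These are 75.0% and 62.5% lower, against 26.8% and 15.4% of all named genes. PRMT7, which makes monomethylarginine, was at 6.21, 6.27 and 6.43 on the corin arrays, 6.90, 7.15 and 7.08 on the MS-275 arrays and 7.53, 7.59 and 7.48 on the vehicle arrays, so that no groups overlapped. The log2 changes were -1.23 for PRMT7 and -1.22 for PRMT2 under corin (adjusted p = 5.2e-07 and 2.7e-07), and -0.49 and -0.49 under MS-275. PRMT6 fell under corin (-0.87) and had a log2 change of -0.20 under MS-275, which was not called. The 2 most active members of the family, PRMT1 and PRMT5, which make most of the asymmetric and symmetric dimethylarginine of cells, were lower with both, at -0.36 and -0.29 under corin and -0.33 and -0.29 under MS-275. The 95% intervals of their differences between the inhibitors were -0.25 to 0.20 and -0.21 to 0.21. PRMT9, which methylates a splicing factor, was the 1 raised, at 1.96-fold over vehicle under corin (adjusted p = 0.00021) and a log2 difference of 0.77 from MS-275 (adjusted p = 0.0018).

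Of the HDAC genes other than HDAC1, 2 of 10 were higher and 3 lower than vehicle under corin, and 2 were higher under MS-275. These shares, 20% higher and 30% lower under corin, lie near the 23.4% and 26.8% of all named genes. HDAC3, the catalytic subunit of the NCoR and SMRT corepressor complexes and itself a target of both compounds, read 7.91, 7.78 and 7.73 on the corin arrays, 7.12, 7.17 and 7.32 on the MS-275 arrays and 6.71, 6.58 and 6.67 on the vehicle arrays. It was 2.22-fold higher under corin and 1.46-fold higher under MS-275 than under vehicle (adjusted p = 5.5e-07 and 0.0007), and higher under corin than under MS-275 (0.60 log2 units with a 95% interval of 0.41 to 0.80, adjusted p = 0.00023). HDAC5, a class IIa deacetylase that shuttles between nucleus and cytoplasm, had 7.82, 7.89 and 7.91 on the corin arrays, 7.01, 7.05 and 7.09 on the MS-275 arrays and 6.49, 6.46 and 6.63 on the vehicle arrays. The groups again formed 3 steps, with folds of 2.54 for corin and 1.44 for MS-275 over vehicle (adjusted p = 6.1e-08 and 0.00045).
HDAC2, the close paralog of HDAC1, stayed within the spread of its arrays, at 6.45 ± 0.08 (SD, n = 3 arrays) under corin, 6.43 ± 0.16 under MS-275 and 6.41 ± 0.12 under vehicle. Its log2 change was 0.04 under corin (95% interval -0.19 to 0.27) and 0.02 under MS-275 (-0.21 to 0.24). HDAC8, the remaining class I gene, was lower under corin (-0.37, adjusted p = 0.0027) and had a log2 change of 0.03 under MS-275. The class IIa gene HDAC7 was lower under corin by 0.74 log2 units (adjusted p = 0.00022), and HDAC11, the class IV enzyme, was 1.27-fold higher under corin than under MS-275 (adjusted p = 0.006). For HDAC4 the 2 probes differed in size. The probe with the higher mean over all arrays stands for the gene. It averaged 6.07 under vehicle, with log2 changes of -0.19 under corin and -0.09 under MS-275, neither of them called. The other had means of 4.86 under corin, 5.25 under MS-275 and 6.28 under vehicle, which differ by -1.42 and -1.03 from vehicle. On the vehicle arrays this other probe was the brighter one, so the missing calls for HDAC4 hold for the chosen probe only. Both probes were lower than vehicle in sign with both inhibitors, and they differed in the size of the change.

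Among the 7 sirtuins, 3 were higher and 2 lower than vehicle under corin, and 1 was lower under MS-275. The shares under corin were 42.9% higher and 28.6% lower, against 23.4% and 26.8% of all named genes. SIRT7, a nucleolar deacetylase, read 7.80, 7.83 and 7.48 on the corin arrays, 6.82, 6.56 and 6.51 on the MS-275 arrays and 6.55, 6.32 and 6.56 on the vehicle arrays, so that the MS-275 and vehicle arrays overlapped, the corin arrays above both. It was 2.34-fold higher under corin than under vehicle (adjusted p = 5.1e-06) and 2.1-fold higher than under MS-275 (1.07 log2 units with a 95% interval of 0.80 to 1.34, adjusted p = 3.5e-05), while its change under MS-275 was 0.15 (adjusted p = 0.41). The mitochondrial SIRT4, at 5.57 under corin and below the median gene at 4.74 under MS-275 and 4.48 under vehicle, was 2.13-fold higher under corin. SIRT1, a nuclear deacetylase of histones and p53, was 1.37-fold higher under corin (adjusted p = 0.0046), with a log2 change of -0.21 under MS-275 that was not called. SIRT6, which acts on chromatin at telomeres and breaks, was lower under corin (-0.52, adjusted p = 0.00097), and SIRT2 was lower with both (-0.43 under corin and -0.32 under MS-275).

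**Figure D3:**
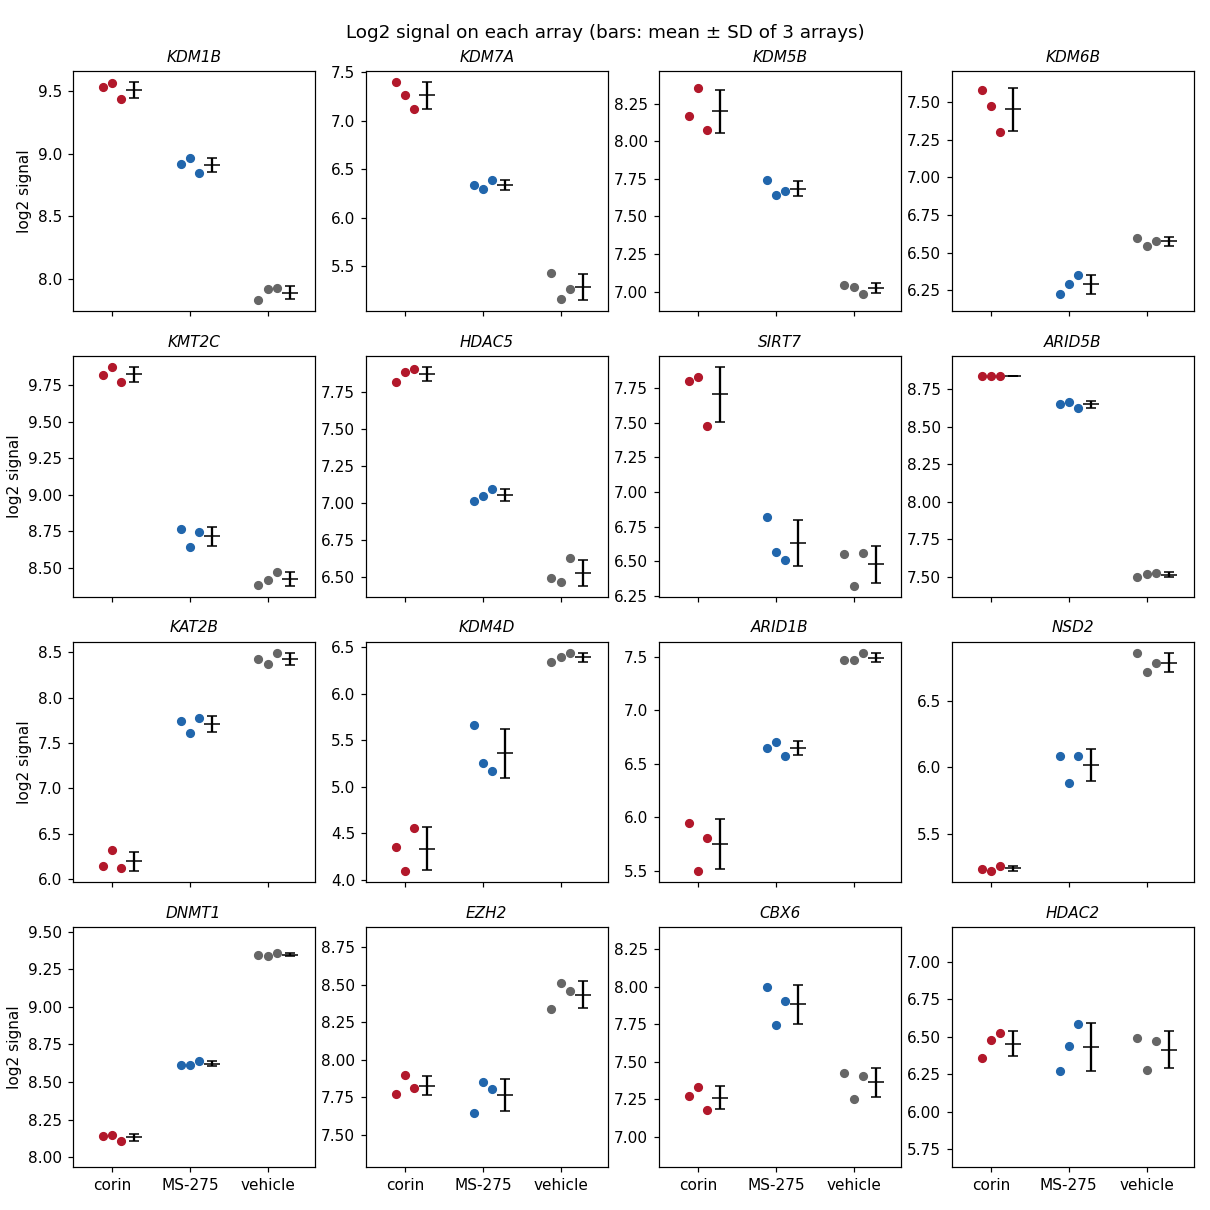
Log2 signal of 16 chromatin enzyme genes on each array (points: 3 corin in red, 3 MS-275 in blue, 3 vehicle in gray; black bars: mean ± SD), with a separate vertical scale for each gene. KDM1B, KDM7A, KDM5B and HDAC5 step down from corin to MS-275 to vehicle, KAT2B, KDM4D, ARID1B, NSD2 and DNMT1 step up in that order, and the groups of HDAC2 overlap.

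Most DNA methylation genes fell. With corin, 5 of 6 DNMT and TET genes were lower than vehicle, under MS-275 4 were lower, and 5 were lower under corin than under MS-275 (83.3%, 66.7% and 83.3%, against 26.8%, 15.4% and 20.8% of all named genes). DNMT1, the maintenance methyltransferase that copies methylation after replication, had even arrays, at 8.14, 8.15 and 8.11 on the corin arrays, 8.62, 8.61 and 8.64 on the MS-275 arrays and 9.35, 9.34 and 9.36 on the vehicle arrays, in 3 separate steps. It fell to 0.431 times its vehicle level under corin and to 0.605 times under MS-275 (on the log2 scale -1.22 and -0.72, adjusted p = 5.4e-08 and 1.9e-05), and it was lower under corin than under MS-275 (-0.49 ± 0.071 log2 units with its standard error, adjusted p = 0.0002). DNMT3A, a de novo methyltransferase, had log2 changes of -1.02 under corin and -0.39 under MS-275 (adjusted p = 1.6e-06 and 0.0063). DNMT3B, the other de novo enzyme, was below the median gene at 4.67 under corin, 5.04 under MS-275 and 5.07 under vehicle, and was called lower under corin only (-0.40, adjusted p = 0.0074). The oxidases TET1 and TET2, which start the removal of DNA methylation, were lower under corin as well (-0.59 and -0.72), with -0.27 and -0.23 for MS-275, of which TET2 was not called. DNMT3L, the inactive cofactor of the de novo enzymes, was below the median gene, not called under corin (log2 change -0.13) and lower under MS-275 (-0.35, adjusted p = 0.025).

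The ARID genes moved both ways, with 4 of 8 higher (all named genes 23.4%) and 2 lower (all named genes 26.8%) than vehicle under corin. ARID1B, which with ARID1A forms the alternative signature subunits of BAF complexes, read 5.95, 5.50 and 5.81 on the corin arrays, 6.65, 6.70 and 6.58 on the MS-275 arrays and 7.47, 7.47 and 7.54 on the vehicle arrays, without overlap, and changed by -1.74 log2 units under corin and -0.85 under MS-275 (adjusted p = 1.1e-07 and 0.00015). ARID1A was lower by 0.98 under corin and 0.61 under MS-275. The ARID5 and ARID3 genes encode DNA or RNA binding proteins outside the BAF complexes. ARID5B, a partner of the demethylase PHF2, was raised by both, at 8.84, 8.84 and 8.84 on the corin arrays, 8.65, 8.66 and 8.62 on the MS-275 arrays and 7.50, 7.52 and 7.53 on the vehicle arrays. Its folds over vehicle were 2.5 under corin and 2.19 under MS-275, and the log2 difference between them was 0.19 (95% interval 0.03 to 0.35, adjusted p = 0.055). ARID5A, which binds and stabilizes inflammatory mRNAs, was 3.01-fold higher under corin and 1.44-fold higher under MS-275 than under vehicle, and 2.09-fold higher under corin than under MS-275 (log2 difference 1.07, adjusted p = 4.2e-06). ARID3B was at 8.03, 8.07 and 8.08 on the corin arrays, 7.04, 7.01 and 7.10 on the MS-275 arrays and 6.90, 6.93 and 6.97 on the vehicle arrays. It rose 2.18-fold under corin (adjusted p = 1.4e-07) and had a log2 change of 0.11 under MS-275 (adjusted p = 0.29). ARID3A and ARID3C were not called in any comparison.

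None of the 9 CHD remodelers measured beside CHD3 passed the fold in any comparison. Over all named genes, 7.26% were higher and 7.61% lower past the fold under corin against vehicle, so an absence among 9 genes says little. With corin, 5 were lower and 2 higher than vehicle, and under MS-275 2 were lower. The lower shares were 55.6% and 22.2%, against 26.8% and 15.4% of all named genes. Of the named genes at or above the median gene, 40.7% and 25.7% were lower. CHD4, the ATPase of the NuRD complex, had log2 changes of -0.70 under corin (adjusted p = 2.8e-05) and -0.25 under MS-275 (adjusted p = 0.046, a call lost with quantile normalization, with the replicate block and without most single arrays, at up to 0.14), and CHD1L (ALC1), a remodeler of DNA repair, changed by -0.55 under corin. CHD1 and the neuronal CHD5 were higher under corin, at 0.37 and 0.43 log2 units, CHD5 from a vehicle signal of 4.49.

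Few readers passed the fold, beside 7.26% higher and 7.61% lower of all named genes under corin against vehicle. Of the 5 BRD genes, 3 were lower than vehicle under corin (all named genes 26.8%), 2 were lower under MS-275 (15.4%), and none was called between the inhibitors by limma, with log2 differences from -0.23 for BRD3 to 0.29 for BRD2. By an unadjusted p under 0.05, 1 of the 5 differed between them. BRD7, a PBAF subunit, and BRD8, of the TIP60 complex, changed by -0.47 and -0.41 under corin. Of 7 CBX genes, CBX5, which encodes the heterochromatin protein HP1 alpha, was the only one past the fold. It was at 6.48, 6.33 and 6.28 on the corin arrays, 7.28, 7.11 and 7.09 on the MS-275 arrays and 7.52, 7.50 and 7.51 on the vehicle arrays, for log2 changes of -1.15 under corin and -0.35 under MS-275 and a difference of -0.80 between them (adjusted p = 2.6e-05). CBX1 (HP1 beta) was not called, and CBX3 (HP1 gamma) changed by -0.45 under corin (adjusted p = 0.0051). CBX6, a Polycomb reader, was the 1 gene called higher under MS-275 and not under corin. Its arrays read 7.272, 7.332 and 7.183 on the corin arrays, 7.999, 7.743 and 7.907 on the MS-275 arrays and 7.428, 7.254 and 7.408 on the vehicle arrays, the corin and vehicle arrays overlapping and the MS-275 arrays above them, for a log2 difference of -0.62 between corin and MS-275 (adjusted p = 0.00027). A second, dimmer CBX6 probe differed by 0.09 between corin and MS-275 and by 0.05 between MS-275 and vehicle. The Polycomb readers CBX2 and CBX7 were not called in any comparison.

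**Figure D4:**
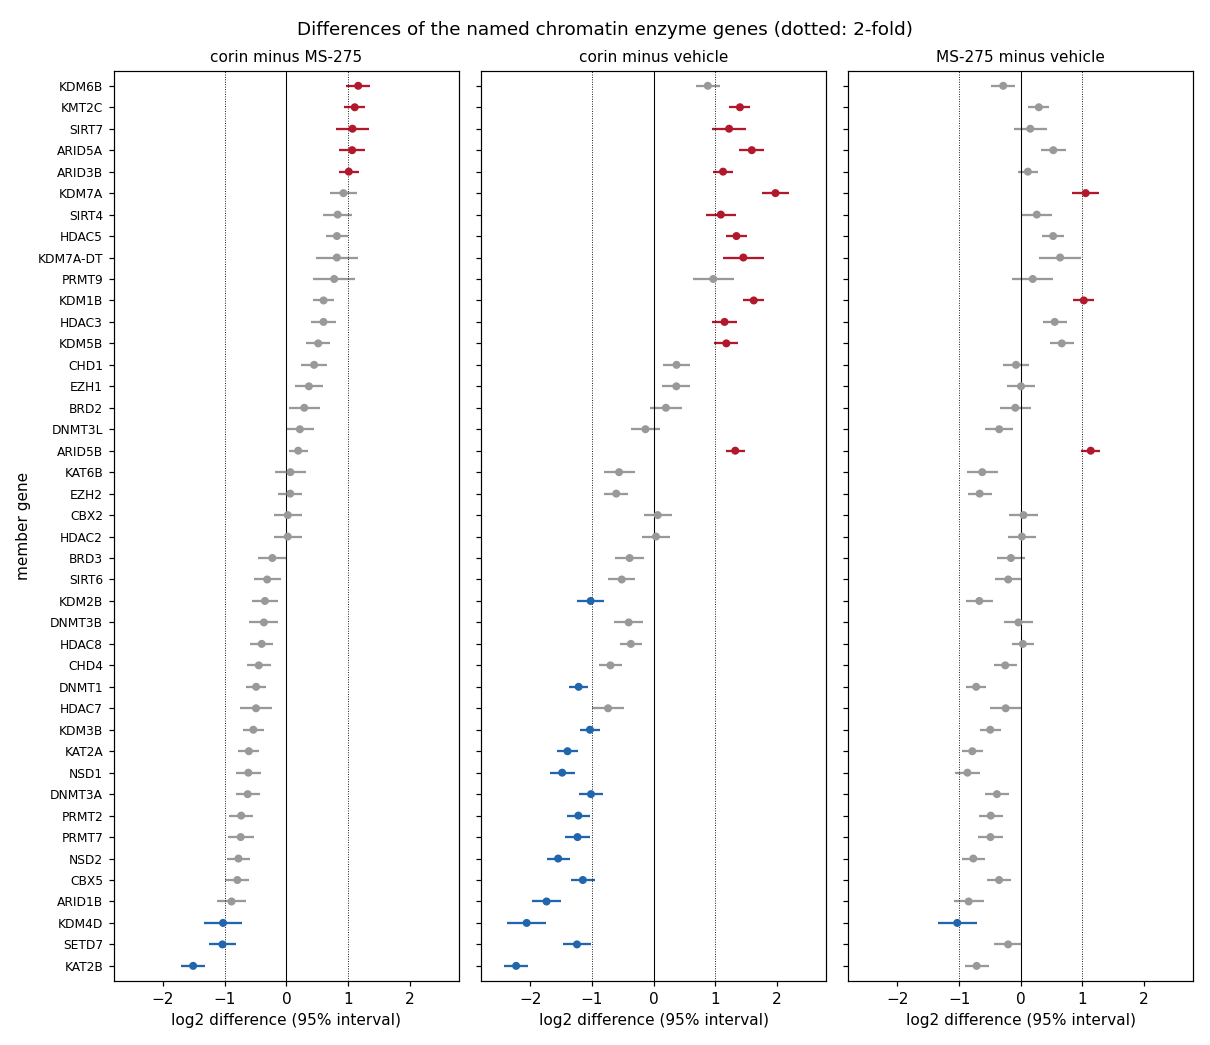
Log2 differences of 42 named chromatin enzyme genes with their 95% intervals from limma (n = 3 arrays per group), for corin minus MS-275, corin minus vehicle and MS-275 minus vehicle, with genes past the fold in red (higher) or blue (lower), the rest in gray, and dotted lines at 2-fold. KDM6B, KMT2C, SIRT7, ARID5A and ARID3B are past the fold on the right and KAT2B, SETD7 and KDM4D on the left in the comparison of the inhibitors.

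Read by pair of calls, the differences between the inhibitors were of 4 kinds. In the first, both compounds moved a gene the same way and corin moved it further. This held for 8 of the 9 genes raised by both (KDM1B, KDM5B, KDM7A, KDM7A-DT, KMT2C, HDAC3, HDAC5 and ARID5A), the exception being ARID5B, and for 19 of the 32 lowered by both, among them KAT2B, KAT2A, NSD1, NSD2, DNMT1 and ARID1B. In the second, only corin was called against vehicle and the direct comparison was also called. There were 13 such genes on the upper side, SIRT7, SIRT4, SIRT1, ARID3B and PRMT9 among them, and 10 on the lower side, including SETD7, PRMT6, HDAC7 and HDAC8. In the third, a gene was called under MS-275 and either not called under corin or called the other way. KDM6B was the 1 called the other way, higher under corin and lower under MS-275. CBX6 was higher under MS-275, not called under corin, and lower under corin than under MS-275. KDM4B, KMT2D, SETD2 and PRMT3 were lower under MS-275 and higher under corin than under MS-275, at direct log2 differences of 0.48, 0.55, 0.27 and 0.36. The 95% interval of the change of KDM4B under corin, -0.21 to 0.27, covered 0, as did that of KMT2D, -0.31 to 0.04. So did those of SETD2, -0.23 to 0.15, and PRMT3, -0.47 to 0.04, and a missing call does not show that corin left these genes unchanged. In the last, 5 genes were called between the inhibitors without a call against vehicle, SETD5, SETD6, HDAC11 and CHD9 higher under corin (0.27, 0.31, 0.35 and 0.29 log2 units) and KMT2E-AS1 lower (-0.29). No difference between the inhibitors was called for 13 genes lowered by both, such as EZH2, KAT5, PRMT1 and PRMT5. The 4 kinds were not counted over all named genes, so they are not shown to be particular to chromatin genes. Over all named genes, too, more passed the fold against vehicle under corin (7.26% higher and 7.61% lower) than under MS-275 (3.03% and 0.39%).

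A list of 84 other chromatin genes without these prefixes, of which 58 were measured, was drawn up with earlier results of these data known. Under corin 31 were lower (53.4%, against 26.8% of all named genes) and 10 higher (17.2%, against 23.4%) than vehicle. Under MS-275 26 were lower (44.8%, against 15.4%) and 1 higher (1.72%, against 14.2%). Of the named genes at or above the median gene, 40.7% were lower under corin and 25.7% under MS-275. With the fold, 13 were lower (22.4%, against 7.61%) and 1 higher (1.72%, against 7.26%) under corin, and none in either direction under MS-275. Between the inhibitors 10 were lower (17.2%, against 3.64%) and 1 higher (1.72%, against 2.41%) under corin past the fold. The farthest apart were PHF19, an accessory subunit of Polycomb repressive complex 2 (-1.63 between corin and MS-275, -2.51 against vehicle under corin), SUV39H1, the writer of heterochromatin (-1.61 and -2.49), and PCGF2 of Polycomb repressive complex 1 (-1.58 and -2.14). UHRF1, which guides DNMT1 to replicated DNA, was lower under corin than under MS-275 by 1.01 log2 units and lower than vehicle by 1.73. JMJD1C, a jumonji protein related to KDM3A, was the 1 that was higher, by 1.28 between the inhibitors.

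Genes of dividing cells were also lower with both inhibitors. All 15 proliferation markers examined were lower than vehicle under corin and under MS-275, with median log2 changes of -3.14 and -0.90 and ranges of -4.66 to -0.54 and -1.10 to -0.41. In the direct comparison 14 of the 15 were lower under corin, the exception being PCNA. Of the 32 chromatin genes lowered by both inhibitors, 13 were not called in that comparison, EZH2 among them (log2 difference 0.06). MKI67 averaged 5.89 under corin, 7.94 under MS-275 and 8.89 under vehicle. The part of fewer dividing cells in the fall of DNMT1, EZH2, NSD2 and the other chromatin genes was not tested, and fewer cells in cycle and less RNA per cell cannot be told apart in these bulk samples.

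Promoter windows of 300 bases (250 before and 50 after the start, RefSeq, GRCh38.p14) were found for 92 of the 106 genes and for 10749 named genes in all. Searched on both strands, at least 1 of the 4 E2F words TTTGGCGC, TTTCCCGC, TTTCGCGC and TTTGCCGC was in 8 of the 92 windows (8.7%, against 4.49% of the 10749), and the CHR word TTTGAA was in 9 (9.78%, against 11.8%). Among the 14 genes lowered past the fold by corin, NSD2 and DNMT1 held an E2F word and KDM4D and NSD2 the CHR word. Of the genes raised past the fold, 9 had a window, in which KDM1B held an E2F word and SIRT4 the CHR word. The words were thus present on both sides, and a match says only that the letters are there.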

How the data were processed

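The files hold the authors' log2 signals of 53617 probes for 9 arrays, made from the scanned intensities with RMA in Partek Genomics Suite. The build hg19 stands in the submitters' processing notes. RMA sets the arrays to a common distribution, so changes are relative to the other transcripts. A platform table gave 16098 probes 1 gene symbol, 0 several and 37519 none, and the symbols matched the RefSeq table of GRCh38.p14 for all 16098. The probe with the highest mean stood for a gene with several (5 of the 106 genes). limma 3.58.1 (R 4.3.3) was fitted to the groups (lmFit and eBayes on all 9 arrays, 3 per group, prior degrees of freedom 5.07), with Benjamini-Hochberg adjustment over 14884 genes. The design text of the series gives the 2-fold limit. Precision is limited by how many arrays there are, with gene-wise SDs whose median was 0.14 log2 units for corin, 0.10 for MS-275 and 0.10 for vehicle. The fit was tested on simulated data.

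The chromatin genes and the other lists were chosen with earlier results of these data known. Named were every chromatin gene past the fold, the highest and lowest of each family between the inhibitors, and a few known members. Other genes given with values were chosen after these were seen. Alternatives were a replicate block, fits with 2 groups, the one-way model of the methods, the methods' fold for 2 SD, trend and robust moderation, brighter genes only, the mean of all probes, median centring, quantile normalization, protein-coding symbols only, and each array left out. Python 3.11.15 and matplotlib 3.10.9 drew the figures.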

Additional observations from a re-analysis of the deposited data

How the results depend on the processing

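Of 12 counts of chromatin genes called, each recomputed under the alternatives, 3 values moved by over 1.5 times. The count higher with corin than with MS-275 past the fold was 3 to 5 when single arrays were left out, and 3 without MS-275 replicate 2, where ARID3B (log2 difference 0.99) and ARID5A (0.97) fell short of the fold. The count lower with MS-275 than with vehicle past the fold was 0 to 1, and 0 without MS-275 replicate 2 or 3, where the log2 change of KDM4D was -0.98 or -0.93. Smaller moves were 2 genes lower with corin than with MS-275 past the fold (KDM4D -0.91 without corin replicate 2 and -0.88 without MS-275 replicate 1, SETD7 -0.99 without corin replicate 3) and 2 higher with MS-275 than with vehicle (KDM1B 0.99 without MS-275 replicate 2 or vehicle replicate 1, KDM7A 0.99 without vehicle replicate 2). Against vehicle with corin, KDM2B fell short of the fold without corin replicate 2 or vehicle replicate 2, DNMT3A without corin replicate 2 or vehicle replicate 1, and KDM3B without corin replicate 1 or with quantile normalization. The cause was not tested. For single named genes, 2083 values kept their side of the threshold, 37 lost the call and 13 gained it. Of the values called in the main fit, 0 reversed, and the sign of uncalled values was not compared. Arrays with the same replicate number did not deviate together (r = -0.0587 to 0.0175), so the numbers were not taken as pairs. With a replicate block, 28 genes were lower and 29 higher with corin than with MS-275, 49 and 23 against vehicle with corin, and 34 and 10 with MS-275, and the counts past the fold did not move. The 3 arrays per group limit the precision, and 16 genes lay below the median gene.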
